A study of Mus musculus with 90 samples.

Results

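The livers of 4 mice injected with dex plus S961 and then fed were compared with those of 4 mice injected with vehicle and then fed, 8 of the 90 samples of the series, by poly(A) RNA-seq over all genes. The members were chosen by their labels alone. All were wild-type C57BL/6N mice of 10 weeks, trained to night-restricted feeding (NRF, in which chow is present in the dark period only), injected intraperitoneally 30 minutes before ZT12, given food, and sampled at ZT14, where ZT counts hours from lights on. Vehicle was PBS, dexamethasone (dex, a synthetic glucocorticoid) was given at 1 mg/kg, and S961 (a peptide antagonist of the insulin receptor) at 44 nM per mouse in the labels, an amount that the study's methods give per kg. With 4 fed mice given dex alone and 4 given S961 alone, these groups make a 2 by 2 design, which asks whether the agents together do more or less than the sum of their single effects. Another 4 mice were injected with vehicle and left unfed. Each library came from 1 liver. Both agents were given to the whole animal, so that effects in the liver and effects by way of other organs cannot be told apart.

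Glucocorticoids bind the glucocorticoid receptor (GR), a nuclear receptor that enters the nucleus on binding and switches genes on from glucocorticoid response elements (GREs), and in liver it is known for inducing gluconeogenic and amino acid-degrading enzymes before the active phase. Insulin acts through its receptor, the IRS proteins, and AKT, which phosphorylates the transcription factor FOXO1 and keeps it out of the nucleus, so that FOXO1 targets fall after a meal, and it raises SREBP-1c, which drives lipid synthesis. A meal thus meets falling glucocorticoid and rising insulin, and the injected pair keeps the former signal up and the latter down.

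In the deposited peak lists, some GR peaks meet a FOXO1 peak. Such a peak lay within 50 kb of the start of 215 of 295 genes that rose and have a position (72.9%). It did so for 26.6% of those that fell and 29.4% of all tested. Printed below are 5 windows of 201 bases around the centre of such a GR peak, as later results turn on the genes beside them. They are the windows beside named genes that hold a GRE and a FOXO motif (a window in an untranslated region of Angptl4 is left out), and the windows with a GRE beside Igfbp1 and G6pc. Capitals mark the GRE (GNACANNNTGTNC, a palindrome when read on both strands) and the FOXO motif (GTAAACA, or TGTTTAC on the other strand). Coordinates are of mm9, and the letters are of the plus strand.
Gadd45b, 32278 bases downstream of its start, in an intron of Gng7, chr10:80425014-80425214: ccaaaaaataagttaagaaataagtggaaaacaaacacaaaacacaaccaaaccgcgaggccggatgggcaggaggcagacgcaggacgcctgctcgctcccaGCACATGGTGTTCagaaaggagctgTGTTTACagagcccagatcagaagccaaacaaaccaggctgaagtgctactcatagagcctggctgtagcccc
Ddit4, 27578 bases upstream of its start, between genes, chr10:59441996-59442196: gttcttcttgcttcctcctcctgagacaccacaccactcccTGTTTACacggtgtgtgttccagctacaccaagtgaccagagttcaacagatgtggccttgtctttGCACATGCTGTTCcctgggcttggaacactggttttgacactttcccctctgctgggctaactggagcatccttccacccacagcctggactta
Klf15, 46746 bases downstream of its start, in an intron of Aldh1l1, chr6:90459216-90459416: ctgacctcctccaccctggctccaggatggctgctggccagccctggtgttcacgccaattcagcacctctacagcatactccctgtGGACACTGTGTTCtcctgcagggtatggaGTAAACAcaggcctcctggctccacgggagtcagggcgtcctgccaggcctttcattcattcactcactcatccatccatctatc
Igfbp1, 41282 bases upstream of its start, in an intron of Adcy1, chr11:7056403-7056603: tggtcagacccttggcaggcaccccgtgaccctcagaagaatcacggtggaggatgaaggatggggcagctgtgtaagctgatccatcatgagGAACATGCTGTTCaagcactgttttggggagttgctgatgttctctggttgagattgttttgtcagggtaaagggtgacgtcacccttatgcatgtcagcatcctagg
G6pc, 5173 bases upstream of its start, between genes, chr11:101223602-101223802: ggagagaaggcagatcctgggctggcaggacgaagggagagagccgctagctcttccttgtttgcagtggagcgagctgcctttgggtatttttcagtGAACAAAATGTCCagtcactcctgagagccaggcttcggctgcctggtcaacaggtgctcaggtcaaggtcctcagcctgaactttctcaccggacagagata
Of the 5098 GR peaks that met a FOXO1 peak, 5.87% held the GRE in such a window, 12.9% the FOXO motif, and 0.745% both. Of all 10446 GR peaks 0.479% held both, and of 83592 DNase-hypersensitive sites 0.0359%. The GR peaks printed for Ddit4 and Igfbp1 overlap none of these sites, and those for Gadd45b, Klf15, and G6pc do. A match of letters is a description and does not show binding at the motif.

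The values are RPKM (reads scaled to transcript length and to library size), and every log2 value below is a difference of log2(RPKM + 0.5), which understates changes of low genes. The step that 1 read makes in the low values gave the depth relative to vehicle replicate 1. It was 68.3% to 97.2% in the fed dex + S961 libraries and 78.0% to 106% in the other vehicle libraries. With dex alone it was 55.0% to 91.8%, lowest in replicate 2, and with S961 alone 79.5% to 114.5%. These ranges overlapped, and low genes rest on fewer reads in the shallower libraries. Replicate 4 of every injected group carries a later library number, and the first principal component, with 23.2% of the variance, set these libraries apart at 26.6 to 30.6, against -27.7 to 0.15 in all others. Results are therefore also given for replicates 1 to 3 alone. In the livers, 7 of 8 hepatocyte markers were in the table, with a summed level of 47517 to 63645 RPKM in vehicle and 54938 to 70769 RPKM in dex + S961 livers.

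Dex plus S961 raised 304 genes and lowered 889 of the 11251 tested (limma BH-adjusted p under 0.05, 2.7% and 7.9% of all genes, 10.6% in all), and 2900 (25.8%) had an unadjusted p under 0.05. Given alone, dex raised 113 (1.0%) and lowered 246 (2.19%), 359 in all (3.19%), and S961 raised 106 (0.942%) and lowered 108 (0.96%), 214 in all (1.9%), and with median-ratio scaling the splits were 153 and 107 for dex and 142 and 60 for S961. These 3 comparisons share the vehicle livers, and a count does not show that the effects differ. The balance of rises and falls depended on scaling. RPKM put the median of all genes at -0.14, and with the libraries scaled to a common median ratio 450 genes rose and 322 fell with the pair, at a median of -0.0016 over all genes. Quantile normalization gave 391 rises and 319 falls. A small fall within about 0.14 of 0 is thus relative to the scaling chosen. The number of called falls, 889 on RPKM at a median of -0.59, depended on that choice as well. Shares of falls given below are of the RPKM calls unless another scaling is named. With replicates 1 to 3 alone 1291 genes changed, and 364 of these rose. Without fed dex + S961 replicate 2, the counts were 208 and 459. In 282 of the 304 rises and 795 of the 889 falls, the 4 values of one group lay all above those of the other, as they did for 17.1% of all genes (3.61% higher and 13.5% lower), and 105 rises and 84 falls exceeded 2-fold.

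Additivity was tested as the interaction of the 2 by 2 design, the log2 effect of the pair less the sum of the log2 effects of dex and S961, so that 0 means that the fold changes multiply. The interaction passed an adjusted p of 0.05 in 0 of 11251 genes (limma, smallest BH-adjusted p = 0.9997), and an unadjusted p under 0.05 was reached by 513, or 4.56% of the genes tested. This share was 7.96% with a replicate block, 8.24% with a term for the library number, and 8.81% (991 genes) with replicates 1 to 3 alone, where the smallest BH-adjusted p by limma was 0.05002, and with 1 library left out the number ran from 381 (without fed dex replicate 2) to 806 (without fed S961 replicate 3). The count past the adjusted threshold stayed at 0 under each scaling, filter, and pseudocount tried, with a replicate block, with replicates 1 to 3 alone, and when additivity was taken on untransformed RPKM. It reached 4 without fed dex replicate 4. Its 95% interval lay within 2-fold of 0 in either direction for 9300 genes (82.7%), for 212 of the 304 that rose, and for 798 of the 889 that fell, and the SE of the interaction was 0.23 at the median. For the genes that rose, the median log2 change was 0.81 with the pair, 0.33 with dex, and 0.34 with S961, and for those that fell -0.59, -0.31, and -0.31. The genes were picked on the first of these values, so that the medians only describe them.

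**Figure D1:**
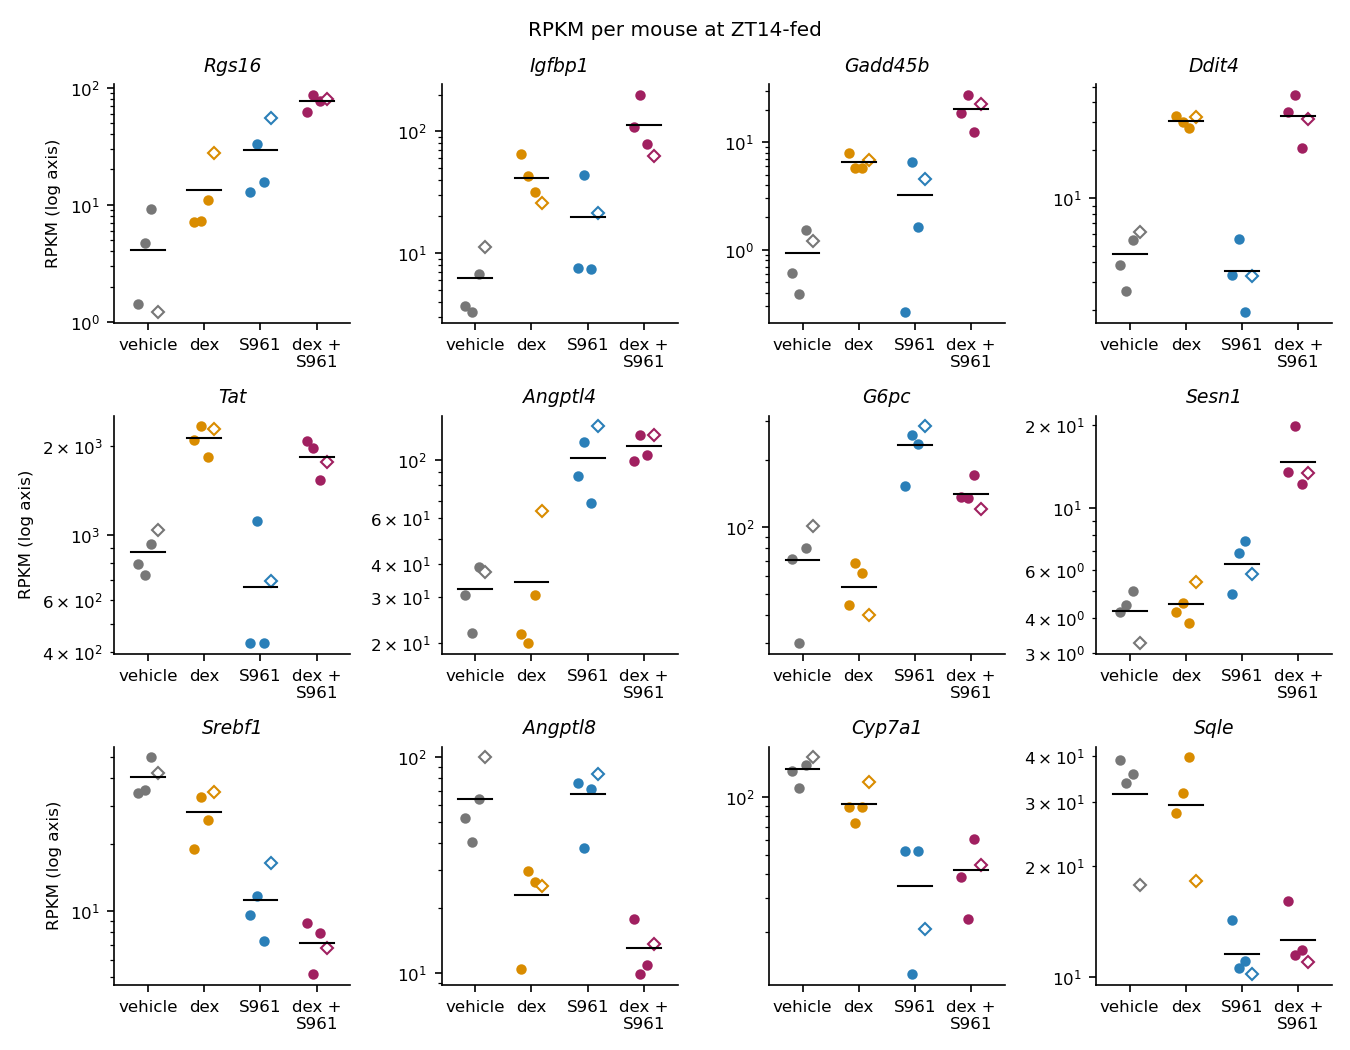
RPKM of 12 genes (log axis, 1 panel each) in the 4 fed groups, with a point per mouse, open diamonds for replicate 4 and bars at the group mean. Rgs16, Igfbp1, Gadd45b and Sesn1 were highest with both agents, Ddit4 and Tat were as high with dex alone, Angptl4 and G6pc were also raised with S961 alone, and Srebf1, Cyp7a1 and Sqle were low in both groups given S961.

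The largest rise was that of Rgs16 (NM_011267), which encodes a regulator of G protein signaling. It stood at 1.42, 4.72, 9.15, and 1.21 RPKM in the 4 vehicle livers, 7.12, 7.27, 11.1, and 27.8 with dex, 12.8, 32.8, 15.7, and 55.2 with S961, and 61.9, 85.8, 76.5, and 80.1 with both. Every liver given both was above every other fed liver. The change against vehicle was 4.41 with both (SE 0.53, limma BH-adjusted p = 5.30e-05), 1.72 with dex (adjusted p = 0.0825), and 2.81 with S961 (adjusted p = 0.00932). The single changes sum to 4.53, and the interaction was -0.12 with a 95% interval of -1.69 to 1.45.

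Igfbp1 (NM_008341), the insulin-repressed gene of a secreted binding protein for insulin-like growth factors, was next. Vehicle livers held 3.69, 3.28, 6.798, and 11.2 RPKM, dex livers 65.8, 42.9, 32.03, and 25.6, S961 livers 7.58, 43.5, 7.37, and 21.3, and livers given both 108, 197, 78.96, and 62.8. S961 livers spread widely, with replicates 2 and 4 above all vehicle livers and the others within their range, and 1 dex liver overlapped the group given both. The change was 4.07 with both (SE 0.56, limma BH-adjusted p = 0.000194), 2.70 with dex (adjusted p = 0.0104), and 1.37 with S961 (adjusted p = 0.256), which did not pass. The interaction was -0.0049, and its sign turned with the library left out, from -0.34 without fed S961 replicate 3 to 0.49 without fed S961 replicate 2. Its interval of -1.66 to 1.65 allows a 2-fold departure from additivity either way.

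**Figure D2:**
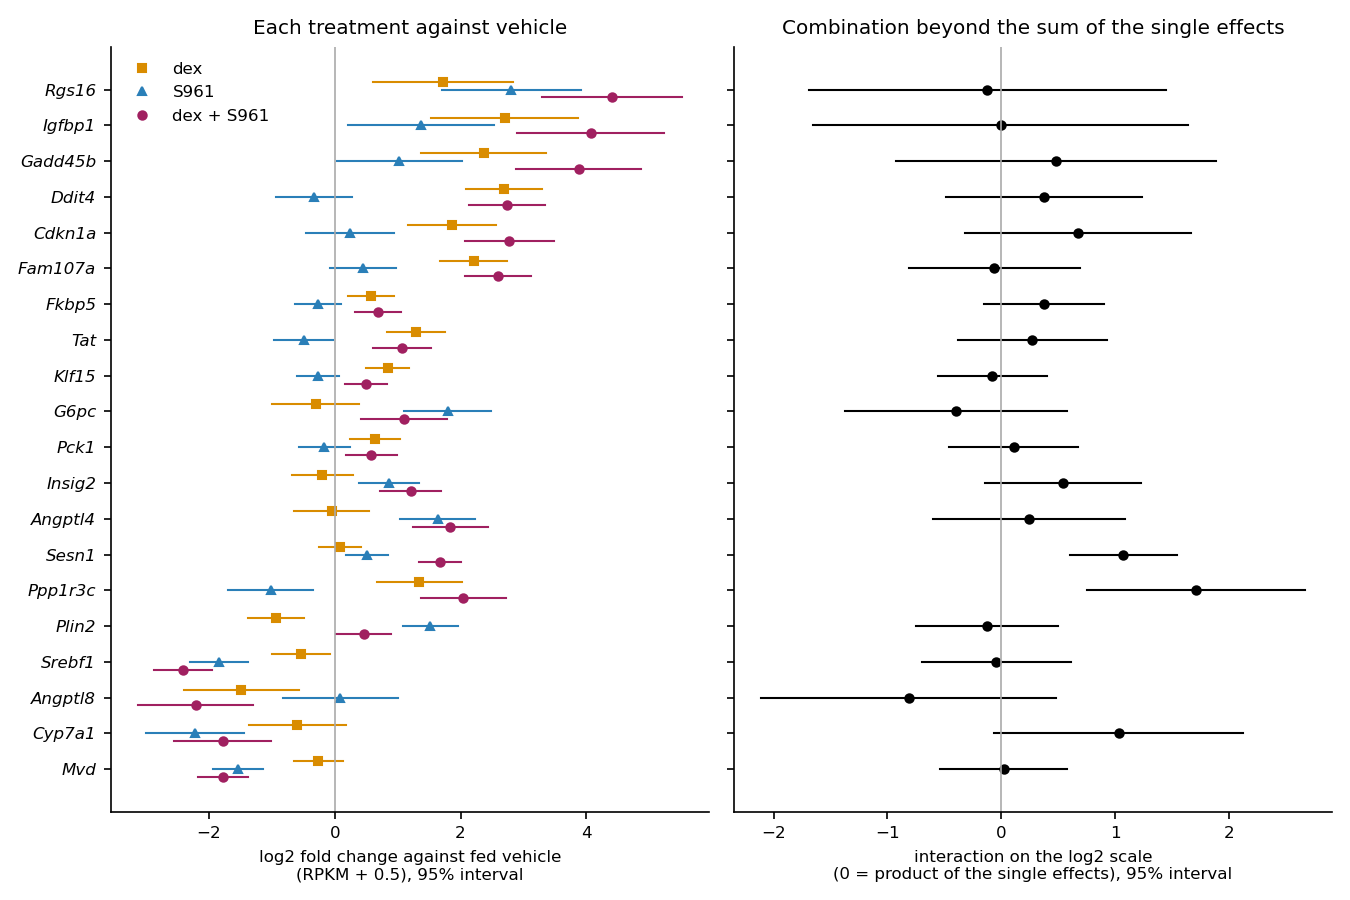
Left, log2 fold changes against fed vehicle with dex (squares), S961 (triangles) and dex + S961 (circles) for 20 genes, and right, the interaction, each with its 95% interval (limma, n = 4 per group). The intervals on the right cross 0 for 18 of the 20 genes and lie above it for Sesn1 and Ppp1r3c, whose interactions did not pass the adjusted threshold.

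Most GR targets rose. Of 20 listed genes, all tested, 14 rose and 0 fell with dex plus S961, beside 2.7% and 7.9% of all genes tested. Their median was 1.11 beside -0.14 for all genes. With dex alone 13 rose (median 1.22), and with S961 alone 0 changed (median 0.05). With replicates 1 to 3 alone, 16 rose with the pair.

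Among these, the stress genes Gadd45b and Gadd45g (which encode sensors of growth arrest and DNA damage), Cdkn1a (the cell cycle inhibitor p21), and Ddit4 (an inhibitor of mTORC1) had large rises. Ddit4 held 3.83, 2.61, 5.46, and 6.13 RPKM in vehicle livers, 32.9, 30.2, 27.4, and 32.2 with dex, 3.32, 5.57, 1.93, and 3.27 with S961, and 34.9, 44.2, 20.7, and 31.3 with both. Livers given both overlapped dex livers and reached further in both directions, with changes of 2.74 with both (SE 0.29, limma BH-adjusted p = 1.45e-05) and 2.70 with dex (adjusted p = 8.44e-05). Gadd45b held 0.604, 0.386, 1.52, and 1.21 RPKM in vehicle livers, 7.97, 5.74, 5.72, and 6.85 with dex, 0.264, 6.58, 1.64, and 4.52 with S961, and 18.6, 27.1, 12.5, and 22.8 with both. Every liver given both lay above every dex liver, at a change of 3.88 against 2.37 with dex alone (limma BH-adjusted p = 6.23e-05 and 0.0085), while the interaction was 0.48 (interval -0.92 to 1.89). Cdkn1a went from 7.497 ± 2.72 RPKM (SD, n = 4) to 27.4 ± 5.302 with dex and 54.1 ± 19.8 with both, a change of 2.78 (limma BH-adjusted p = 5.62e-05). Gadd45g rose by 2.51 (adjusted p = 0.0028) with limma. Their relative Gadd45a moved the other way, at 2.08, 5.75, 4.06, and 3.03 RPKM in vehicle livers and 0.571, 0.5800, 0.6900, and 0.203 with both, a change of -2.02 (limma BH-adjusted p = 0.000138).

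Other GR targets followed dex. Fam107a, an actin-associated gene known for its response to glucocorticoids, changed by 2.60 with both and 2.21 with dex (limma BH-adjusted p = 6.37e-06 and 0.00011). Tat, the tyrosine aminotransferase long used as a marker of glucocorticoid action, held 796, 729.9, 933, and 1040.4 RPKM in vehicle livers, 2096, 2331, 1829.8, and 2285 with dex, 429.6, 1114, 429, and 695 with S961, and 2081, 1963, 1535, and 1759.7 with both. The dex and the combined groups overlapped, with changes of 1.29 and 1.07 (limma BH-adjusted p = 0.00295 and 0.00458). Fkbp5, which encodes a cochaperone that restrains GR, changed by 0.69 with both (limma BH-adjusted p = 0.0172), a call lost without 1 of 3 libraries in turn (adjusted p up to 0.0709 without fed vehicle replicate 2). With dex alone Fkbp5 changed by 0.58, which did not pass (adjusted p = 0.0825). Klf15, a transcription factor of amino acid breakdown, changed by 0.84 with dex (adjusted p = 0.00642) and by 0.50 with both, which missed the threshold by limma (BH-adjusted p = 0.0548) although the 4 values (65.5, 75.2, 67.6, and 69.1 RPKM) lay above the 4 of vehicle (45.95, 43.8, 44.4, and 64.1 RPKM).

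Plin5, which encodes a coat protein of lipid droplets, rose. It held 34.2, 27.3, 37.4, and 30.8 RPKM in vehicle livers, 55.3, 58.03, 53.02, and 56.8 with dex, 34.7, 43.9, 36.4, and 46.3 with S961, and 73.4, 102, 76.3, and 89.7 with both. Those 4 values exceeded all others. The change was 1.38 (SE 0.12, limma BH-adjusted p = 1.33e-06), against 0.78 with dex and 0.31 with S961, and the interaction was 0.29 (interval -0.058 to 0.63).

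Lcn2 (lipocalin 2, an acute phase protein that binds iron-loaded siderophores) and Mt2 (a metallothionein, which binds zinc) rose with both. Lcn2 held 14.3, 11.9, 61.6, and 11.8 RPKM in vehicle livers, in which replicate 3 stood apart, 231, 243, 200.5, and 112 with dex, and 229, 189.8, 94.9, and 138 with both, a change of 3.00 (limma BH-adjusted p = 0.00533) beside 3.29 with dex. Mt2 changed by 2.35 with both and 2.10 with dex (adjusted p = 0.00236 and 0.0119), and its S961 livers spread from 246 to 1166 RPKM. Of 20 acute phase and inflammation genes, 3 rose and 1 fell (median 0.14), beside 2.7% and 7.9% of all genes tested, and with dex 3 and 0. Il1rn, which encodes an antagonist of the interleukin 1 receptor, had changes of 1.65 with both, 0.38 with dex, and 1.76 with S961 (limma BH-adjusted p = 0.000653, 0.475, and 0.00168), and the adhesion molecule Icam1 fell by 0.82 (adjusted p = 0.00945), a call lost with replicates 1 to 3 alone.

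A locus on chromosome 14 held the gene of smallest p-value, Phf11c. Phf11c and the histone methyltransferase gene Setdb2 are neighbors, and the RefSeq entry Gm45935 (an older name is Setdb2-phf11c) runs through both, so that reads of the 3 entries cannot be told apart. Whether counting used strand is not given in the sources used here, and reads of antisense partners cannot be told apart either. Phf11c held 3.16, 2.47, 2.98, and 2.27 RPKM in vehicle livers, 19.6, 9.85, 9.54, and 19.3 with dex, 3.48, 5.73, 4.12, and 4.11 with S961, and 41.8, 33.9, 23.6, and 28.6 with both. The livers given both lay above all others. Phf11c changed by 3.31 (limma BH-adjusted p = 2.97e-07) and Setdb2 by 2.86 (adjusted p = 1.33e-06), against 2.16 and 1.61 with dex and 0.58 and 0.70 with S961.

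FOXO1 and insulin-repressed genes moved less uniformly. Of 18 listed, 17 were tested and 6 rose and 1 fell, Gadd45a, beside 2.7% and 7.9% of all genes tested. Their median was 0.50. With dex alone 4 rose and 1 fell (median -0.10), and with S961 2 rose and 0 fell (median -0.07). With replicates 1 to 3 alone, 8 rose and 1 fell. The mTORC1 inhibitor Sesn1 (sestrin 1), a known FOXO target, changed most by p. It held 4.23, 4.45, 5.03, and 3.25 RPKM in vehicle livers, 4.22, 4.55, 3.84, and 5.402 with dex, 4.89, 6.87, 7.61, and 5.78 with S961, and 13.5, 19.7, 12.2, and 13.3 with both. Dex livers overlapped vehicle, S961 livers lay mostly above it, and all livers given both were higher than all others. The change was 1.67 with both (SE 0.16, limma BH-adjusted p = 4.53e-06), and it was 0.082 with dex (adjusted p = 0.836) and 0.51 with S961 (adjusted p = 0.114). Its interaction of 1.07 (interval 0.61 to 1.54) had an unadjusted p of 0.000124, the smallest of the positive ones, and did not pass adjustment over all genes (limma BH-adjusted p = 0.9997).

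Foxo1 itself was higher with dex and higher still with both. It held 10.3, 10.6, 11.3, and 10.1 RPKM in vehicle livers, 14.8, 13.1, 14.95, and 14.3 with dex, 9.701, 11.2, 8.07, and 9.504 with S961, and 17.5, 16.3, 15.9, and 18.1 with both. S961 livers overlapped vehicle, dex livers lay above both, and livers given both lay above the dex livers. The change was 0.66 with both and 0.42 with dex (limma BH-adjusted p = 0.000172 and 0.0121), and the interaction was 0.37 (unadjusted p = 0.00785). Irs1, which encodes the adaptor between the insulin receptor and phosphoinositide 3-kinase, fell by 0.86 (limma BH-adjusted p = 0.00215). Trib3, which encodes an inhibitor of AKT, went from 0.463 ± 0.155 RPKM (SD, n = 4) to 2.01 ± 0.651, a change of 1.36 (adjusted p = 0.00303). Gsk3b, the kinase that insulin restrains in glycogen synthesis, changed by -0.56 (adjusted p = 0.0018). Of 18 insulin signaling genes, 2 rose and 3 fell, beside 2.7% and 7.9% of all genes tested. The counts were 2 and 5 with replicates 1 to 3 alone, where 1291 of all 11251 genes changed and 364 of these rose.

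Gluconeogenic genes rose in part, with single-agent levels at or above those of the pair for some. Of 14 listed, 13 were tested and 5 rose and 0 fell, beside 2.7% and 7.9% of all genes tested. Their median was 0.38, against 0.22 with dex (3 rose) and 0.15 with S961 (3 rose). G6pc, the catalytic subunit of glucose-6-phosphatase, held 71.97, 29.99, 80.6, and 101 RPKM in vehicle livers, 44.4, 68.5, 62.3, and 40.1 with dex, 153, 258, 236, and 284 with S961, and 137, 135, 171, and 121 with both. Livers given both lay above vehicle and dex livers, and S961 livers reached higher, with changes of 1.10 with both and 1.80 with S961 (limma BH-adjusted p = 0.0382 and 0.0083), and the former call was lost without any 1 of 6 libraries (adjusted p up to 0.139 without fed vehicle replicate 2). Pck1 (phosphoenolpyruvate carboxykinase, the first committed step) stood at 579, 643, 690.3, and 731 RPKM in vehicle livers and 1194, 1064, 921, and 809 with both, without overlap. Its change of 0.58 missed the threshold (limma BH-adjusted p = 0.0571), as did 0.64 with dex (adjusted p = 0.0741). Both Klf15 and Pck1 passed it with median-ratio scaling and with replicates 1 to 3 alone.

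Ppargc1a, the coactivator PGC-1α of gluconeogenesis and oxidation, rose with each agent. It held 2.12, 2.34, 1.81, and 2.09 RPKM in vehicle livers, 4.64, 5.13, 4.77, and 3.64 with dex, 3.44, 3.56, 4.11, and 5.12 with S961, and 4.07, 6.45, 3.895, and 5.86 with both. The 3 treated groups overlapped each other and none overlapped vehicle. The changes were 0.96 with dex, 0.81 with S961, and 1.08 with both (limma BH-adjusted p = 0.00148, 0.00922, and 0.00023), and the interaction of -0.68 (interval -1.13 to -0.24, unadjusted p = 0.00471) did not pass adjustment. Got1, the cytosolic aspartate aminotransferase, changed by 1.07 with dex, 1.09 with S961, and 1.53 with both (limma BH-adjusted p = 0.0304, 0.0393, and 0.00131). Of 22 genes of amino acid breakdown and the urea cycle, 5 rose, Got1 among them, and 0 fell, beside 2.7% and 7.9% of all genes tested. Their median was 0.17, against 0.35 with dex. Aass, of lysine breakdown, changed by 1.13 (limma BH-adjusted p = 0.00279), and by 0.45 and 0.74 with the single agents, neither of which passed.

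**Figure D3:**
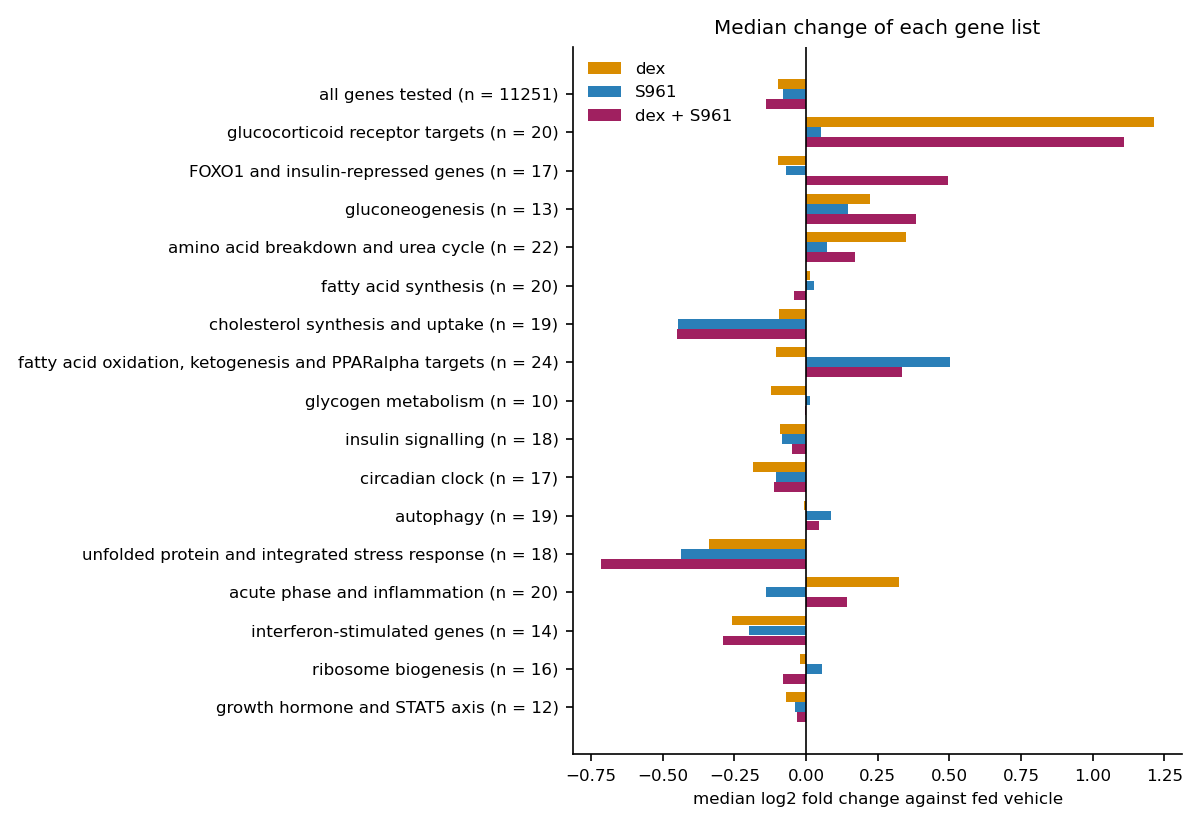
Median log2 fold change against fed vehicle of 16 gene lists and of all genes tested, with dex, S961 and dex + S961 as bars. The GR target medians were 1.22 with dex and 1.11 with both, and the cholesterol and fatty acid oxidation medians with both were closer to those with S961 than to those with dex.

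Srebf1, the gene of SREBP-1 and one that insulin is known to raise, fell. It stood at 34.3, 35.2, 49.6, and 42.1 RPKM in vehicle livers, 19.1, 32.9, 25.8, and 34.6 with dex, 9.57, 11.7, 7.28, and 16.5 with S961, and 8.82, 5.17, 7.99, and 6.81 with both. The highest dex liver just exceeded the lowest of vehicle, and livers given S961, with or without dex, lay below both. The change was -2.41 with both (SE 0.22, limma BH-adjusted p = 3.20e-06), against -1.84 with S961 (adjusted p = 0.000523) and -0.53 with dex (adjusted p = 0.199), and the interaction was -0.044 (interval -0.70 to 0.61).

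Of 20 genes of cholesterol synthesis and uptake, 19 were tested and 0 rose and 10 fell, beside 2.7% and 7.9% of all genes tested. Their median was -0.45 with both and with S961 alone (7 fell) and -0.10 with dex. Mvd, of the mevalonate pathway, fell from 5.39 ± 0.659 RPKM (SD, n = 4) to 1.22 ± 0.222, a change of -1.78 (limma BH-adjusted p = 1.45e-05). Sqle (squalene epoxidase) held 39.1, 33.7, 35.9, and 17.8 RPKM in vehicle livers, 28.02, 31.8, 39.7, and 18.2 with dex, 14.3, 10.5, 11.1, and 10.2 with S961, and 16.1, 11.4, 11.8, and 10.95 with both. Livers given S961, with or without dex, lay below all others and overlapped each other, at changes of -1.37 and -1.25 (limma BH-adjusted p = 0.00418 and 0.00194). Insig1 and Insig2, whose proteins hold SREBPs in the endoplasmic reticulum (ER), parted. Insig1 changed by -1.20 and Insig2 by 1.21 with both (limma BH-adjusted p = 0.000672 and 0.00269).

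Fatty acid synthesis genes changed in part, beside 10.6% of all genes tested. Of 21 listed, 20 were tested, with 1 rise, 3 falls, and a median of -0.04. With median-ratio scaling there were 3 rises, 1 fall, and a median of 0.11, and with quantile normalization 0 rises and 2 falls. Fasn (fatty acid synthase) changed by -0.50 (limma BH-adjusted p = 0.0158), and the call was lost without 1 of 2 libraries in turn (up to 0.0592 without fed dex + S961 replicate 2). Dgat2, of triglyceride synthesis, was the list's rise, at 0.40 (limma BH-adjusted p = 0.0222), lost without 1 of 3 libraries in turn (up to 0.0783 without fed vehicle replicate 2). Mid1ip1, an activator of acetyl-CoA carboxylase, changed by -1.74 (limma BH-adjusted p = 0.000853).

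Angptl8 and Angptl4, secreted regulators of lipoprotein lipase, moved in opposite directions. Angptl8, which feeding is known to induce, held 52.2, 40.3, 64.2, and 99.9 RPKM in vehicle livers, 10.4, 29.5, 26.3, and 25.2 with dex, 75.8, 38.01, 71.1, and 84.00 with S961, and 17.7, 9.87, 10.9, and 13.5 with both, a change of -2.21 (limma BH-adjusted p = 0.00338). S961 livers overlapped vehicle, at a change of 0.087 against -1.49 with dex (adjusted p = 0.961 and 0.0697). Angptl4, a fasting-induced gene, held 30.5, 21.7, 38.8, and 37.4 RPKM in vehicle livers, 21.6, 19.9, 30.5, and 64.01 with dex, 86.7, 118, 68.7, and 135 with S961, and 99.2, 125, 105, and 125 with both. Here it was the dex livers that overlapped vehicle, and the changes were 1.84 with both, 1.64 with S961, and -0.047 with dex (limma BH-adjusted p = 0.000556, 0.00561, and 0.952).

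Genes of fatty acid oxidation, ketogenesis, and the PPARα program rose in part. Of 24, 6 rose and 0 fell with both (median 0.33), beside 2.7% and 7.9% of all genes tested. With S961 8 rose (median 0.50), and with dex 1 rose and 2 fell (median -0.11). Acot1, an acyl-CoA thioesterase, changed by 1.36 with both and 1.47 with S961 (limma BH-adjusted p = 0.00387 and 0.00927). Pdk4, which encodes the kinase that shuts off pyruvate dehydrogenase, held 0.664, 0.764, 0.603, and 0.505 RPKM in vehicle livers and 1.79, 22.3, 5.67, and 4.32 with both, a wide spread above all of vehicle (change 2.48, limma BH-adjusted p = 0.00823). S961 livers held 1.28, 9.43, 2.94, and 10.0 RPKM and overlapped those given both. Their change of 2.16 did not pass (adjusted p = 0.0559), nor did 0.34 with dex (adjusted p = 0.800). For Plin2, of lipid droplets, the single agents opposed each other. It held 79.8, 70.2, 105, and 88.2 RPKM in vehicle livers, 47.6, 37.9, 42.7, and 49.3 with dex, 163, 329.7, 231, and 287 with S961, and 88.1, 153, 116, and 118 with both. Dex lowered it by 0.94 and S961 raised it by 1.52 (limma BH-adjusted p = 0.0182 and 0.00104), and with both the change was 0.46 and did not pass (adjusted p = 0.178), beside a sum of the single effects of 0.59.

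Ppp1r3c, which encodes a subunit that targets protein phosphatase 1 to glycogen, had single effects of opposite sign as well, but a combined level above that of dex. It held 42.8, 20.1, 39.2, and 11.04 RPKM in vehicle livers, 43.2, 57.9, 63.99, and 103 with dex, 8.75, 15.4, 14.4, and 10.7 with S961, and 122, 86.99, 102, and 107 with both. The highest dex liver, replicate 4, reached the range of the group given both. The changes were 2.04 with both, 1.34 with dex, and -1.02 with S961 (limma BH-adjusted p = 0.000648, 0.0262, and 0.127). The single effects sum to 0.33, and the interaction was 1.71 (interval 0.76 to 2.67, unadjusted p = 0.00136), which did not pass. Of 10 genes of glycogen metabolism, 2 rose and 1 fell, beside 2.7% and 7.9% of all genes tested. The rises were Ppp1r3c and its relative Ppp1r3g (2.12 with both and 1.94 with S961). The adjusted p-values of Ppp1r3g were 0.0097 and 0.0495 (limma BH).

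Many listed genes of the unfolded protein and integrated stress response fell. Of 18 genes, 11 fell and 2 rose, beside 7.9% and 2.7% of all genes tested, with a median of -0.72. With either agent alone 0 passed, at medians of -0.34 with dex and -0.44 with S961. Of the 11, Hspa5, Pdia4, Hyou1, Sdf2l1, Creld2, Hsp90b1, Manf, Pdia6, Dnajb9, and Calr encode chaperones or folding factors of the ER, and Ddit3 encodes the transcription factor CHOP. The 2 that rose were Trib3 and Chac1 (which degrades glutathione). Hspa5, the chaperone BiP, held 408, 416, 421, and 578 RPKM in vehicle livers, 231, 305, 477, and 446 with dex, 364, 263, 384, and 183 with S961, and 274, 183, 241, and 193 with both. Vehicle replicate 4 was high, yet all 4 livers given both lay below all 4 of vehicle. The change was -1.04 (SE 0.23, limma BH-adjusted p = 0.00778), and it was -1.27 for the disulfide isomerase Pdia4, -1.35 for the chaperone Hyou1, and -1.93 for Sdf2l1 (adjusted p = 0.00471, 0.00475, and 0.00877). The count of falls was 5 with median-ratio scaling, 9 with quantile normalization, and 10 with replicates 1 to 3 alone. With a term for the library number, 1 fell with dex and 3 with S961, and with replicates 1 to 3 alone 1 fell with dex.

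Cyp7a1, the rate-limiting enzyme of bile acid synthesis, stood at 136, 111, 147, and 160.2 RPKM in vehicle livers, 88.8, 73.2, 88.5, and 119 with dex, 52.8, 12.1, 52.5, and 20.9 with S961, and 38.8, 23.3, 60.5, and 44.7 with both. Livers given S961, with or without dex, lay below all others, and the change was -1.78 with both, -2.22 with S961, and -0.59 with dex (limma BH-adjusted p = 0.0047, 0.0041, and 0.42). The homeobox gene Hhex fell furthest after the entry Mir7068, from 41.6, 67.8, 36.8, and 31.6 RPKM to 6.26, 3.14, 12.7, and 12.3 with both, a change of -2.42 (limma BH-adjusted p = 0.00166), and neither -0.73 with dex nor -1.29 with S961 passed. Arrdc3, an arrestin-domain gene, held 23.5, 19.1, 20.1, and 20.5 RPKM in vehicle livers, 1.603, 1.62, 3.04, and 5.19 with dex, and 5.501, 4.01, 7.33, and 5.58 with both, the latter 2 overlapping, with changes of -2.79 and -1.83 (limma BH-adjusted p = 0.000159 and 0.00236). S1pr1, a receptor of sphingosine 1-phosphate on endothelium, held 24.5, 24.9, 17.9, and 22.8 RPKM in vehicle livers, 11.5, 11.03, 13.9, and 17.1 with dex, 11.03, 5.87, 9.89, and 7.59 with S961, and 6.18, 4.47, 6.88, and 5.77 with both, changes of -0.74, -1.37, and -1.87 (limma BH-adjusted p = 0.0527, 0.00168, and 1.98e-05). Livers given both lay below all vehicle and dex livers and overlapped those given S961. Osgin1, an oxidative stress gene, changed by -2.18 with both and -1.57 with dex, and the ubiquitin ligase gene Rnf186 by -1.74 with both (adjusted p = 0.000172, 0.00578, and 0.0219), the last lost without 1 of 3 libraries in turn (up to 0.0776 without fed vehicle replicate 2). The rises among the 15 largest not yet described were Cyp2b10, a drug-metabolizing cytochrome P450 (2.22 with both and 2.30 with dex, adjusted p = 0.0074 and 0.0128), and Fbf1, of the cilium base (2.28 with both and 2.40 with S961, adjusted p = 0.0114 and 0.0261). The entries Mir7068 and Mirlet7d were listed at 0 in all 4 livers given both. No fold is given for them.

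Clock, autophagy, and interferon lists changed in part, beside 2.7% of all genes tested that rose and 7.9% that fell. Of 19 clock genes, 17 were tested and 3 rose and 2 fell. The repressors Ciart and Cry2 rose by 0.87 and 0.65, close to 1.01 and 0.81 with dex, and Per2 fell by 1.01 (limma BH-adjusted p = 0.00151, 0.00458, and 0.0023), while neither agent alone gave a call for Per2. Of 19 autophagy genes, 3 rose (Ulk1, Bnip3, and Atg14) and 0 fell, among them the initiating kinase Ulk1, at 10.3, 13.3, 13.9, and 17.4 RPKM in vehicle livers, 20.04, 20.6, 16.8, and 27.6 with dex, 20.6, 23.3, 16.1, and 27.4 with S961, and 23.9, 26.6, 23.7, and 31.8 with both. With replicates 1 to 3 alone Bnip3 was lost, and Atg14 was lost without 1 of 7 libraries in turn (up to 0.111 without fed dex + S961 replicate 1). The change of Ulk1 was 0.94 with both, and the single changes of 0.61 and 0.65 just missed (limma BH-adjusted p = 0.00188, 0.0553, and 0.059). Of 15 interferon-stimulated genes, 14 were tested and 1 rose and 3 fell, or 1 and 1 both after quantile normalization and with median-ratio scaling. Usp18, a protease that removes ISG15, Stat2, and Mx2 had log2 changes of 0.90, -0.55, and -0.72. The call of Usp18 was lost in 13 of the 20 fits that each left out a library and that of Mx2 in 3 (limma BH-adjusted p up to 0.132 without fed dex + S961 replicate 2 and 0.0823 without fed dex + S961 replicate 4). Of 16 ribosome biogenesis genes and 12 genes of the growth hormone and STAT5 axis, 0 changed.

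Since 0 interactions passed, the 10 of smallest p in each direction are named only as such. Among the positive ones, beside Sesn1 and Ppp1r3c, were Taf2, a subunit of the TFIID complex, at 10.4, 7.53, 11.8, and 6.59 RPKM in vehicle livers, 13.6, 11.7, 12.7, and 8.21 with dex, 6.17, 7.03, 7.27, and 5.198 with S961, and 20.3, 15.2, 18.9, and 17.98 with both. Its interaction was 1.08 (interval 0.58 to 1.58, unadjusted p = 0.000231), and the livers given both lay above all others. The others were Clec7a, Ms4a8a, Cd300e, E030018B13Rik, Fam214a, Srgn, and Ctdspl, of which Clec7a, Cd300e, and Srgn are known in leukocytes. The negative ones included Gm30505, Kdsr, Mrpl48, Rsph3b, Fam81a, Lipt2, Hamp2, Gm6793, and Nek8. Hamp2, a hepcidin gene that shares much sequence with its neighbor Hamp, held 24.9, 10.6, 26.4, and 30.9 RPKM in vehicle livers, 40.7, 118, 44.7, and 33.6 with dex, 39.1, 68.9, 38.1, and 52.3 with S961, and 12.1, 44.4, 35.9, and 40.98 with both, an interaction of -1.92 (unadjusted p = 0.00352) in which dex and S961 livers lay above vehicle and livers given both overlapped all 3 other groups. Reads of near-identical copies cannot be told apart.

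The 4 interactions found without fed dex replicate 4 were chosen by that setting after the values were seen. Arrdc2 held 4.81, 5.399, 7.39, and 20.3 RPKM with dex and 14.4, 12.8, 12.4, and 14.5 with both, against 3.66, 3.25, 3.86, and 4.23 in vehicle livers and 3.03, 2.19, 2.28, and 3.66 with S961. The dex liver left out stood above every liver given both. Its interaction was 1.55 without that liver (limma BH-adjusted p = 0.0196) and 1.12 with it. Glul (glutamine synthetase) held 183, 142, 172, and 290.1 RPKM with dex and 297, 313, 257, and 315 with both (interaction 1.04 without that liver, limma BH-adjusted p = 0.0491, and 0.83 with it). The carboxylesterase gene Ces1b had an interaction of -0.92 without it and -0.67 with it, and the steroid hydroxylase gene Cyp2a4 one of -5.78 and -4.29, and both have close relatives that could share reads. Cyp2a4 held 7.62, 165, 44.9, and 0.135 RPKM in the dex livers, and no other liver of the 2 by 2 design reached 1. In all 4 genes the left-out liver lay outside the range of the other 3 dex livers.

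Markers of Kupffer and endothelial cells fell in part, beside 7.9% of all genes tested. Of 10 Kupffer cell and macrophage markers, 4 fell and 0 rose (median -0.50), and their summed level was 145 to 157 RPKM in vehicle livers, 74.7 to 141 with dex, 74.8 to 118 with S961, and 86.4 to 132 with both. Of 8 sinusoidal endothelial markers, 2 fell, from a sum of 111 to 125 RPKM to 75.6 to 104, and 1 of 7 tested stellate cell and fibroblast markers fell, from 59.7 to 113 RPKM to 58.9 to 83.7. The erythroid sum was 129 to 344 RPKM in vehicle and 106 to 190.0 RPKM in livers given both, with 0 of 5 called. Of 6 cholangiocyte, 9 lymphocyte and neutrophil, and 6 adipocyte and pancreas markers, 2, 3, and 1 passed the filter and 0 were called, and the neutrophil marker Ly6g and the adipocyte marker Adipoq were listed at 0 in all 16 fed libraries. In whole liver, fewer cells of a type and less RNA per cell cannot be told apart, and the part of these markers in the falls above was not tested.

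Mice that share no library with the injected ones gave a readout independent of the comparison. The first were lean wild-type male C57BL/6 mice of the obesity experiment (chow for 10 weeks, then NRF, no injection, sampled at ZT14, n = 3 per group). After the weeks of diet they were older than the injected mice. In their livers, 2673 of 11434 genes differed between unfed and fed (limma BH-adjusted p under 0.05, 23.4%, with 832 (7.28%) higher and 1841 (16.1%) lower unfed, or 1185 and 1169 with median-ratio scaling). Of the 304 genes that rose with dex plus S961, 293 were tested there and 163 (55.6%) were higher unfed and 4 lower, beside 7.48% higher among all genes tested in both. Of 886 that fell, 369 (41.6%) were lower unfed, beside 16.4%. Read the other way, of the 830 genes higher in unfed lean livers, 163 (19.6%) rose with dex plus S961 and 15 fell, at a median of 0.09, and 652 were not called. Igfbp1 was higher unfed by 6.22 (limma BH-adjusted p = 6.25e-05), Rgs16 by 4.06 (adjusted p = 0.00189), and Angptl8 differed by -4.65 (adjusted p = 1.11e-05). Plin5, 0.37 (adjusted p = 0.518), and Hhex, -0.17 (adjusted p = 0.668), did not pass.

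**Figure D4:**
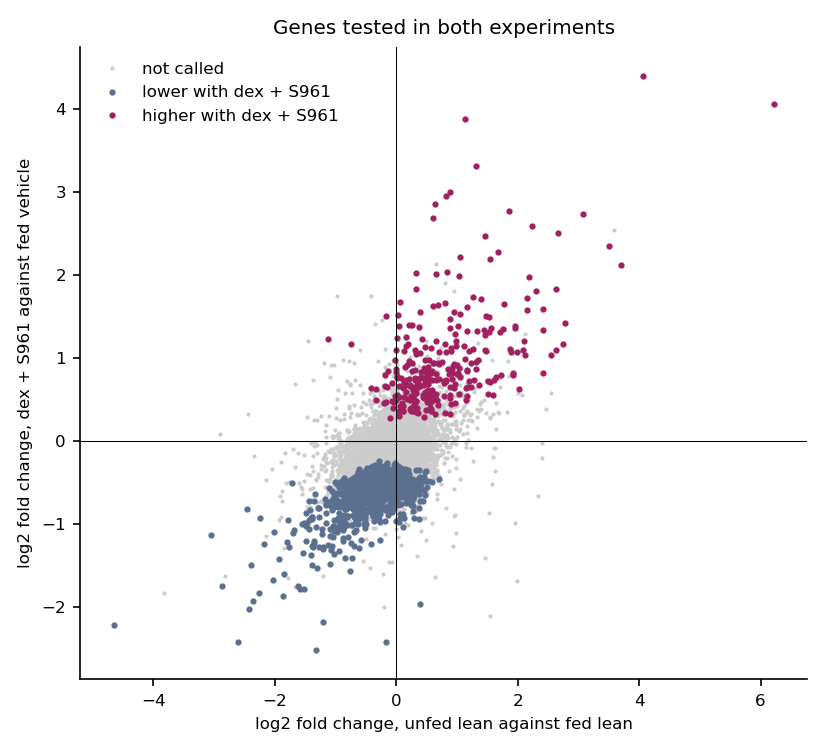
Log2 fold change with dex + S961 against fed vehicle (vertical axis) and of unfed against fed livers of lean mice of another experiment (horizontal axis), 1 point per gene tested in both, colored by the call with dex + S961. Of the 293 colored genes that rose, 163 were called higher unfed, and Igfbp1 and Rgs16 lie at the upper right.

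In unfed L-GRKO livers (Nr3c1 fl/fl mice of C57BL/6 background in the labels and C57BL/6N in the study's methods, with the GR gene deleted by AAV8 carrying Cre under the hepatocyte promoter Tbg, against AAV8 with GFP, ZT14, n = 4 per group), Nr3c1 fell from 14.2 ± 1.55 to 4.41 ± 0.637 RPKM (SD, n = 4), and 778 of 11649 genes differed from control (limma BH-adjusted p under 0.05, 6.68%, with 519 (4.46%) higher and 259 (2.22%) lower, or 294 and 369 with median-ratio scaling). Of 293 genes that rose with dex plus S961, 79 (26.96%) were lower without GR and 6 higher, beside 2.31% lower among all genes. In fed L-IRSdKO livers (Irs1 fl/fl and Irs2 fl/fl mice of 10 weeks, of C57BL/6 background in the labels and C57BL/6J in the methods, with Cre under the albumin promoter, against floxed mice without Cre, both genotypes given dex, ZT14, n = 4 per group), Irs1 fell from 4.03 ± 1.22 to 0.199 ± 0.08198 RPKM, Irs2 stood at 2.19 ± 2.31 and 0.773 ± 0.337 RPKM (limma BH-adjusted p = 0.308), and 2253 of 12966 genes differed (17.4%, with 9.06% higher and 8.31% lower), and of the 304 genes, 99 (32.6%) were higher and 13 lower, beside 9.16% higher among all. Rgs16 moved in both, by -2.04 without GR and 3.56 without IRS (limma BH-adjusted p = 0.00889 and 0.00471), as did Igfbp1, by -2.62 and 3.30 (adjusted p = 0.0019 and 0.000625), and Ddit4, by -2.30 and 1.66 (adjusted p = 0.00453 and 0.00897). Sesn1 was higher without IRS, by 1.94 (limma BH-adjusted p = 0.0242), and not detectably changed without GR, at -0.080 (adjusted p = 0.833). Fam107a fell without GR by 2.66 (limma BH-adjusted p = 0.0017) and changed by -0.22 without IRS (adjusted p = 0.625). Fkbp5, Tat, and Klf15 were lower without GR, at -2.64, -1.03, and -0.48 (limma BH-adjusted p = 3.83e-05, 0.0219, and 0.0131). Gadd45b, G6pc, Cdkn1a, Lcn2, and Mt2 did not pass without GR, at 0.066, -0.51, -2.15, -0.46, and -1.23 (adjusted p = 0.964, 0.50, 0.0803, 0.512, and 0.129). Without IRS, Gadd45b did not pass (0.905, adjusted p = 0.2045) and G6pc did (0.98, adjusted p = 0.0067). The L-IRSdKO libraries reach at most 674 to 914 RPKM, where those of the injected mice reach 31620 to 60597, so that differences of highly expressed genes may be understated there.

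Peaks of both factors lay near the genes that rose. The GR and FOXO1 peaks are positions found in both replicates of uninjected unfed livers. In mm9, 10855 of the 11251 genes had a position. Within 50 kb of the transcription start site (TSS), 236 of 295 genes that rose (80.0%) had peaks of both, against 291 of 875 that fell (33.3%) and 4025 of all 10855 (37.1%). By class, 5.86% of the genes with both rose, 1.84% of those with GR alone, 0.858% of those with FOXO1 alone, and 0.583% of those with neither, while the share that fell lay between 7.23% and 8.88% in all 4 classes. The same peaks lie beside many genes that did not move, and no binding after dex plus S961 is in these lists. A GR peak that meets a FOXO1 peak lay within 50 kb of 215 genes that rose (72.9%), 233 that fell (26.6%), and 3191 of all (29.4%). Of the 70 genes named for this comparison, 68 had a position (Gm45935 and Mir7068 had none) and 6 had neither peak, Mvd, Sqle, Sdf2l1, Irs1, Mx2, and Mid1ip1, which fell.

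**Figure D5:**
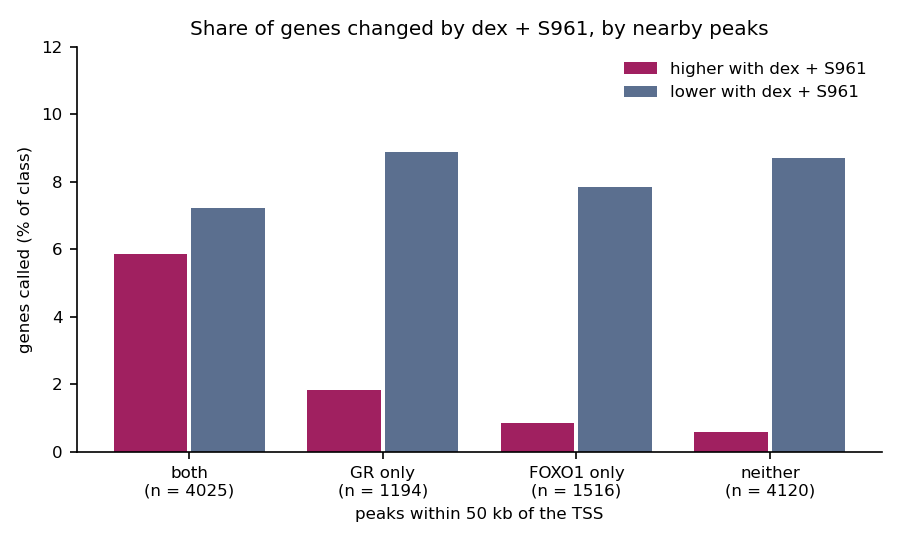
Share of genes that rose or fell with dex + S961 (percent of each class, bars from 0) by whether GR and FOXO1 peaks lay within 50 kb of the TSS, with the number of genes in each class. The share that rose was 5.86% with both and 0.583% with neither, and the share that fell was between 7.23% and 8.88%.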

How the data were processed

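The authors aligned poly(A) reads to mm9 with STAR and deposited RPKM over RefSeq transcripts, without counts. The submitters' processing notes also name HOMER and DESeq2. Versions, the counting tool, and its use of strand are not given in the sources used here. Peak lists of GR, FOXO1, and DNase-hypersensitive sites were deposited as positions. The table has 35707 RefSeq IDs, of which 35407 had a symbol, and 1 ID per symbol (24312) was kept. No per-sample column went unused (0 left out).

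Genes were kept if they averaged 0.5 RPKM or more in the 20 injected libraries (5 groups of 4) and were fitted as log2(RPKM + 0.5) with limma 3.58.1 (R 4.3.3, empirical Bayes with a variance trend, 2-sided, Benjamini-Hochberg adjusted p under 0.05), with contrasts for the pair, for each agent, and for their interaction. The lean, L-GRKO, and L-IRSdKO livers were fitted apart, and 95% intervals are from limma. The fit of the lean livers also held the unfed and fed obese livers of their experiment, which share its estimate of the spread. Since every level is an RPKM, levels are per transcript length. Tables were read with Python 3.11.15 and pandas 2.3.3, and the script was tested on simulated data. Mice are the replicates, 4 per injected group. The study's tool needs counts, which the table does not hold, so limma replaced it.

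Genes named are those of 16 gene lists (2 to 4 of smallest adjusted p each), the 15 largest rises and falls without overlap, the 10 interactions of smallest p in each direction, and genes the study names, of which a few are not reported here. The comparison, the lists, and the markers were chosen with earlier results of these data known. Alternatives were other pseudocounts (0.1 and 1), filters, scalings, sets of libraries, thresholds, and a replicate block. Same-numbered deviations correlated at -0.12 to 0.31 for replicates 1 to 3 and at 0.44 to 0.61 for replicate 4, with 9 pairs at 0.1 or less, so numbers were not taken as pairs. The analysis with replicates 1 to 3 alone was chosen after seeing the data.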

Additional observations from a re-analysis of the deposited data

Results flagged for a closer look

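In 11 of 144 groups of 4 libraries tested, 1 value lay farther from the rest than Dixon's criterion allows, where chance gives about 1 in 20. Klf15 was 64.1 RPKM in vehicle replicate 4 against 43.8 to 46.0 in the others. The chaperone genes Pdia4, Hspa5, and Creld2 were high in vehicle replicate 4 too, at 108 RPKM against 58.3 to 63.4, 578 RPKM against 408 to 421, and 119 RPKM against 40.1 to 50.9. Lcn2 was 61.6 RPKM in vehicle replicate 3 against 11.8 to 14.3. Insig2 was 65.1 RPKM in vehicle replicate 1 against 32.6 to 37.9, and Ciart was 14.4 RPKM in vehicle replicate 3 against 9.61 to 10.4.

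In the livers given both agents, Fkbp5 was 86.0 RPKM in replicate 4 against 96.2 to 98.1 in the others. Sesn1 was 19.7 RPKM in replicate 2 against 12.2 to 13.5. Sqle was 16.1 RPKM in replicate 1 against 11.0 to 11.8. Fed dex replicate 4 had a score of 29.99 on the first principal component, against -7.34 to -2.99 in the other dex livers.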

How the results depend on the processing

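The count of 1193 genes changed by dex plus S961 was 772 with median-ratio scaling, 710 with quantile normalization, 2025 over all RefSeq IDs, 2204 with a library number term, 468 at an adjusted p under 0.01, and 667 (without fed dex + S961 replicate 2) to 1387 (without fed S961 replicate 3) when 1 library was left out. The rises were 497 over all IDs, 476 with the library number term, 166 at 0.01, and 208 to 331 by library. The falls were 322 with median-ratio scaling, 319 with quantile normalization, 1528 over all IDs, 1728 with the library number term, 572 with only the groups of the contrast, 302 at 0.01, and 459 to 1056 by library. The dex count was 548 over all IDs, 1.1e3 with the library number term, 88 with only the groups of the contrast, 117 at 0.01, 820 with replicates 1 to 3 alone, and 158 (without fed dex replicate 2) to 537 (without fed dex replicate 4) by library. The S961 count was 323, 478, 25, and 54 in the same first 4 settings, and 113 (without fed vehicle replicate 1) to 281 (without fed S961 replicate 1). A replicate block, whose numbers did not pair the mice, gave 2041 genes for the pair, with 1588 falls, 968 for dex, 432 for S961, and 1444 for L-IRSdKO. Interactions numbered 0 to 4 by library. At 0.01 the lean, L-GRKO, and L-IRSdKO counts were 1169, 270, and 578, and L-GRKO had 466 without the filter. By library the 3 counts ran from 1726 to 3221, 392 to 711, and 1084 to 3020, the highest lean count without unfed obese replicate 1. Genes with both peaks were 63.4% of rises and 17.4% of falls within 20 kb, and 86.8% and 52.0% within 100 kb.

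On the untransformed scale the interaction of Tat was -92.9 RPKM and that of Igfbp1 56.6 RPKM, and with a pseudocount of 1 Igfbp1 was at 0.052. By library, interactions near 0 changed sign in Igfbp1 (-0.34 to 0.49), Klf15 (-0.27 to 0.013), and Pck1 (-0.079 to 0.32). The causes were not tested, apart from fewer genes or libraries where these were left out. Of 67 named calls, 57 held in every fit that left out 1 library and 63 with replicates 1 to 3 alone, which lost Bnip3, Icam1, Mx2, and Mir7068. Mir7068 and Mirlet7d, with values at 0, were lost by library up to adjusted p-values of 0.0570 (without fed dex + S961 replicate 2) and 0.0744 (without fed vehicle replicate 2) by limma. Beyond single libraries, 862 differences of named genes kept their direction and their side of the threshold, 31 lost and 9 gained significance, and 0 reversed. Depth per library is known only relative to vehicle replicate 1, which leaves genes near 0.5 RPKM least certain.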
